A study of Mus musculus with 7 samples.

Results

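Of 49584 features counted in small RNA libraries of mouse heart mitochondria, 9 genes of calcium and sodium handling are described here: Ryr2, Casq2, Hrc, Trdn, Jph2, Atp2a2, Pln, Cacna1c and Slc8a1. They were picked by name as genes of the sarcoplasmic reticulum and the surface membrane, with knockout and control values of these same libraries already known, so their differences between the groups are given as a description and not as a test. The knockout animals were 4 mice in which both Tefm alleles carry a loxP-flanked exon and a cre transgene under the muscle creatine kinase promoter removes it (genotype Tefm -/-), and the control animals were 3 mice with the same loxP-flanked alleles and no cre (genotype Tefm +/+). That promoter is active in cardiomyocytes and skeletal muscle, so other cells of the heart should keep Tefm, which encodes the mitochondrial transcription elongation factor. Control mice number 4 in the study's design, 3 of them have a library in this work, and a library is treated as a mouse. If libraries shared a mouse, the p-values would measure technical spread alone. The mitochondria were a crude preparation, and the libraries were made with a small RNA kit, so each count of an mRNA is a count of a short fragment of it.

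In a heart muscle cell, each beat starts when calcium enters through L-type channels of the surface membrane and opens ryanodine receptors, which release far more calcium from the sarcoplasmic reticulum. Proteins inside the reticulum store calcium near the release channel, and others hold the reticulum against the surface membrane. Relaxation follows as the SERCA pump returns calcium to the reticulum, under restraint by phospholamban, while the sodium-calcium exchanger expels the rest across the surface membrane in exchange for sodium.

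Libraries differed in what they contained as well as in depth. Total counts ran from 973835 to 1302619 in knockout libraries and from 1560798 to 2570739 in control libraries, and nuclear protein-coding genes supplied 29203 to 188642 of these counts in knockouts and 51111 to 160267 in controls. Levels below are counts of a gene per 1000000 nuclear protein-coding counts of its library (CPM). This scale sets aside the mitochondrially encoded RNAs that made up 64.6% to 88.1% of a library. Its own make-up differed between the groups. The 10 most abundant nuclear protein-coding genes of a library took 12.6% to 16.6% of it in knockouts and 22.8% to 30.0% in controls. Small RNA content, as the log2 ratio of summed microRNA and snoRNA to nuclear protein-coding counts, was 1.84, 3.11, 0.54 and -2.44 in knockouts 1 to 4 and 2.88, -1.35 and 0.61 in controls 1 to 3, so both groups held libraries rich and poor in small RNA. Tefm itself had 0, 1, 0 and 2 counts in knockouts 1 to 4 and 0, 2 and 1 counts in controls 1 to 3, too few to check the genotype. Markers of cardiomyocytes were present in every library. Their summed level was 32577 to 43660 CPM in knockouts and 49542 to 77576 CPM in controls, without overlap, and 8 of the 8 markers had negative fold changes on this scale (0 called by edgeR, 2 at an unadjusted p under 0.05, 2 by DESeq2). Sarcomere genes, a list of 24, summed to 73899 to 95024 CPM in knockouts and 97814 to 149518 CPM in controls, but of the 23 tested 13 had positive and 10 negative fold changes, with a median of 0.07. Fewer cardiomyocytes in the preparation and less RNA per cardiomyocyte cannot be told apart in bulk samples.

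Together the 9 genes took a smaller share of the nuclear protein-coding counts in knockout hearts. The share was 1.53%, 1.24%, 1.09% and 1.40% in knockouts 1 to 4, against 2.99%, 3.98% and 4.78% in controls 1 to 3. The groups did not overlap, and the share in knockout hearts averaged 1.32% ± 0.19 (SD, n = 4) against 3.92% ± 0.90 (SD, n = 3) in control hearts. The 95% Wilson interval, which covers counting error alone, was 1.40% to 1.68% in knockout 1, the highest knockout, and 2.84% to 3.14% in control 1, the lowest control. Without Atp2a2, the most abundant of them, the other 8 genes took 0.64% ± 0.12 (SD, n = 4) in knockouts and 1.25% ± 0.06 (SD, n = 3) in controls, again without overlap. For every 100 counts of 24 sarcomere genes in the same library there were 14.6 to 16.1 counts of the 9 genes in knockouts. Controls had 19.97 to 48.8, without overlap, and there Atp2a2 supplied 57.2% to 72.9% of the counts of the 9 genes. Without Atp2a2 this ratio was close between knockout 1 and control 1. The other 8 genes took 0.80% and 1.28% of nuclear protein-coding counts in these libraries, and the sarcomere genes took 9.50% and 14.95%. Control 1 lay closest to the knockouts in the share of all 9 genes and in the ratio to sarcomere counts.

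Within this set the direction differed between genes. Hrc, Atp2a2, Ryr2 and Casq2 were lower in every knockout library than in every control library, Slc8a1 was higher in every knockout library than in every control library, and Pln, Cacna1c, Trdn and Jph2 overlapped between the groups. Over the 1505 genes that passed the low-count filter, 7.38% lay below every control and 18.5% lay above every control in the same way (8.10% and 21.9% of the nuclear protein-coding genes tested). Nothing is read from the counts of 4 below and 1 above among the 9 genes, since these values were known when the genes were picked. All 9 genes passed the filter, each with support from libraries of both groups. The median log2 fold change of the 9 was -0.85, against 0.19 over all genes tested and 0.16 over the 1235 nuclear protein-coding genes tested. At an edgeR adjusted p under 0.05, a level that 1.40% of all genes tested reached in the lower direction and 7.31% in the higher, 1 of the 9 genes (Hrc) was in the lower list and 0 were in the higher list. At an unadjusted p under 0.05 edgeR listed 4 of the 9 (26.0% of all genes). DESeq2 with the same scaling listed 4 at an adjusted p under 0.05 (15.1% of all genes), Hrc, Atp2a2 and Ryr2 in the lower direction (3.72% of all genes) and Slc8a1 in the higher.

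**Figure D1:**
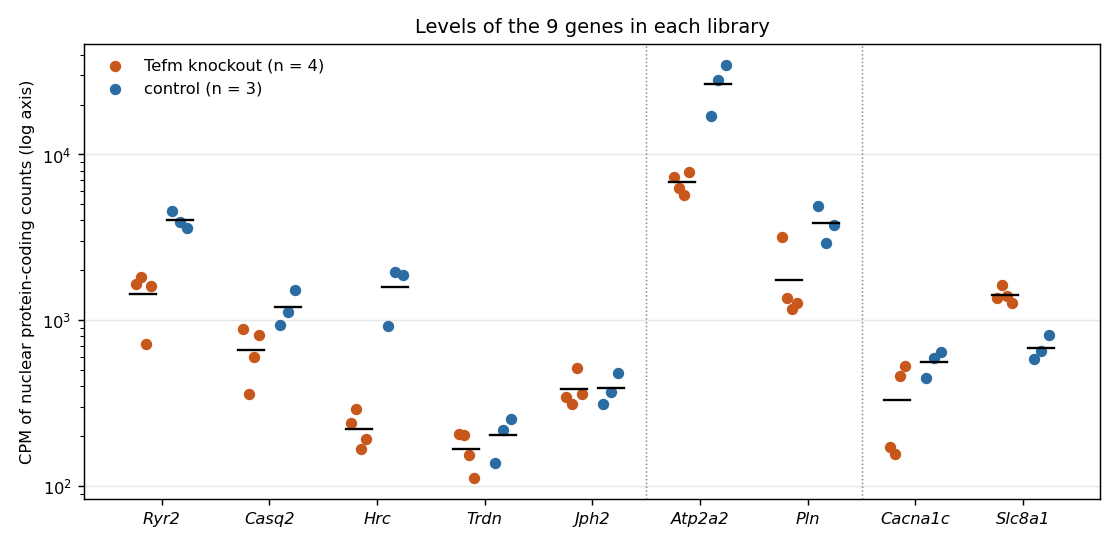
Each point is the level of a gene in a single library, in CPM of nuclear protein-coding counts on a log axis, with Tefm knockout libraries (n = 4) left of control libraries (n = 3) and a line at the group mean; dotted lines part release and store genes, uptake genes and surface membrane genes. Hrc, Atp2a2, Ryr2 and Casq2 are lower in all 4 knockouts than in any control, and Slc8a1 is higher in all 4.

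**Figure D2:**
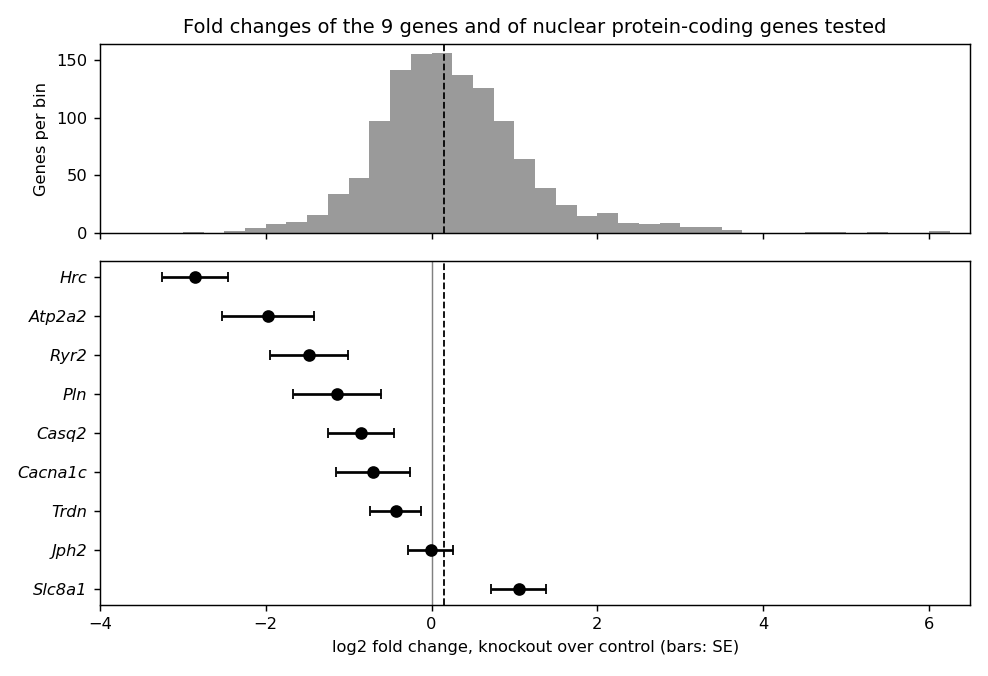
The upper panel counts nuclear protein-coding genes tested by log2 fold change (knockout over control, bins of 0.25), with a dashed line at their median of 0.16, and the lower panel gives the 9 genes with their SE. The genes run from -2.85 (Hrc) to 1.05 (Slc8a1), and Jph2 lies at -0.01.

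The sequences just upstream of 3 of the genes are shown because these genes stand for the 3 patterns above: Hrc lay lowest against controls, Pln is the uptake regulator with overlapping groups, and Slc8a1 went the other way. Each is the 250 bases before the transcription start in RefSeq (GRCm38.p6), 5′ to 3′ on the strand of the gene, with matches to an E-box (CANNTG), a GATA site (AGATAA) or a TATA box (TATAAA) on either strand in capitals.
Hrc: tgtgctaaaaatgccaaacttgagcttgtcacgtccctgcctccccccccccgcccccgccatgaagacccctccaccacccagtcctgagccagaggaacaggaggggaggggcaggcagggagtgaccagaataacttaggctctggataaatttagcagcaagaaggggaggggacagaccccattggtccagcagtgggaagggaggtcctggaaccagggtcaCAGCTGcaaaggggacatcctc
Pln: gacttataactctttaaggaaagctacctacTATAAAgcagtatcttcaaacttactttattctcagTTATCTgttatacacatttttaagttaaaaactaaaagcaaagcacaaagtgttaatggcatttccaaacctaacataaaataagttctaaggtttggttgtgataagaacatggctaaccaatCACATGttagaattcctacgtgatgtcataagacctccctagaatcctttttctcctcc
Slc8a1: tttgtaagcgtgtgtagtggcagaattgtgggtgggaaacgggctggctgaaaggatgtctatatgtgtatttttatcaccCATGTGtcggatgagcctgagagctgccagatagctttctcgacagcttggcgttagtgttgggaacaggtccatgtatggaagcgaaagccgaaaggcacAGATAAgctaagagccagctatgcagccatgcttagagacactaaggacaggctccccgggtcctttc
They lie at chr7:45335019-45335268 (plus strand), chr10:53337436-53337685 (plus strand) and chr17:81738388-81738637 (minus strand). Marked motifs do not overlap each other. An E-box was found upstream of all 7 genes with a RefSeq window (Ryr2, Casq2, Jph2, Hrc, Pln, Cacna1c and Slc8a1), and 66.2% of 32851 RefSeq windows of this length hold one. A gene was counted when any of its windows held the motif (10 windows for the 7 genes), while the percents count single windows. The first listed window of a gene was printed. A GATA site was found upstream of Pln and Slc8a1 (9.99% of all windows), a TATA box upstream of Pln (12.4%), and a GC box (GGGCGG, either strand, not in capitals) upstream of Hrc, Jph2 and Cacna1c (32.7%). The M-CAT motif (CATTCC, either strand) was found upstream of 0 of the 7 (12.6%). GC content of the printed windows was 59.6% for Hrc, 32.8% for Pln and 50.4% for Slc8a1.

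Hrc, which encodes the histidine-rich calcium-binding protein of the sarcoplasmic reticulum lumen, had the lowest fold change of the 9 and, on this scale, of all 1235 nuclear protein-coding genes tested. The gene (ENSMUSG00000038239.11) lies on chromosome 7, 45335290 to 45338974, plus strand, in GRCm38. Its level was 240, 291, 167 and 191 CPM in knockouts 1 to 4 and 920, 1947 and 1885 CPM in controls 1 to 3. Every knockout lay well below every control, and controls 2 and 3 were about alike while control 1 was lower. The log2 fold change was -2.85 ± 0.40 (SE), a level 7.21-fold lower in knockouts, and over 19 alternative settings it ran from -3.20 to -1.98. Counts were 68 in all over the 4 knockouts and 508 over the 3 controls, so counting error is a larger part of the knockout values.

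Casq2 encodes calsequestrin, the main calcium store of the reticulum (ENSMUSG00000027861.13, chromosome 3, 102086415 to 102146514, plus strand). It stood at 890, 359, 597 and 811 CPM in knockouts 1 to 4 and at 939, 1123 and 1531 CPM in controls 1 to 3. The groups did not overlap, but knockout 1 came close to control 1. Casq2 had a log2 fold change of -0.85 ± 0.40 (SE), and it was positive when libraries were scaled to total counts (0.06), to microRNA counts (0.19) or to mitochondrially encoded counts (0.33). Hrc and Casq2 both bind calcium inside the reticulum, and their balance differed between the groups: the log2 ratio of Hrc to Casq2 counts in a library was -1.50 ± 0.81 (SD, n = 4) in knockouts and 0.35 ± 0.41 (SD, n = 3) in controls. The ratio in knockout 2 was -0.29, just under the lowest control at -0.03.

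Ryr2, the cardiac calcium release channel (ENSMUSG00000021313.15, chromosome 13, 11553102 to 12106945, minus strand), was at 1644, 1816, 722 and 1606 CPM in knockouts 1 to 4 and at 4559, 3931 and 3593 CPM in controls 1 to 3. Knockouts 1, 2 and 4 were close together and knockout 3 was the lowest. Its log2 fold change was -1.48 ± 0.47 (SE), a level 2.78-fold lower in knockouts, and it stayed negative in 19 of 19 alternative settings.

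The genes that build the junction between reticulum and surface membrane differed least. Jph2 encodes junctophilin, which ties the reticulum to the T-tubule (ENSMUSG00000017817.11, chromosome 2, 163336242 to 163397993, minus strand). It stood at 342, 314, 514 and 360 CPM in knockouts and at 313, 368 and 481 CPM in controls, with full overlap and a log2 fold change of -0.01 ± 0.27 (SE). The sign of that value turned under 7 alternatives. Trdn encodes triadin, which links calsequestrin to the release channel (ENSMUSG00000019787.8, chromosome 10, 33080554 to 33476709, plus strand). It stood at 205, 202, 153 and 111 CPM in knockouts and at 137, 218 and 253 CPM in controls, with a log2 fold change of -0.43 ± 0.31 (SE) that was positive when mitochondrially encoded counts (0.44) or total counts (0.19) set the scale. Trdn had only 47 counts over the knockouts and 62 over the controls. The log2 ratio of Jph2 to Ryr2 counts was -1.83 ± 0.91 (SD, n = 4) in knockouts and -3.37 ± 0.47 (SD, n = 3) in controls, without overlap.

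Of the uptake genes, Atp2a2 encodes the SERCA2 pump (ENSMUSG00000029467.15, chromosome 5, 122453513 to 122502225, minus strand) and was the most abundant of the set. It stood at 7294, 6276, 5719 and 7893 CPM in knockouts 1 to 4 and at 17080, 28078 and 34827 CPM in controls 1 to 3. The knockouts were tightly grouped (coefficient of variation 14.4%) and the controls were spread more widely (33.6%), with control 1 lowest. Its log2 fold change was -1.97 ± 0.56 (SE), a level 3.92-fold lower in knockouts, and over the 19 alternatives it ran from -2.28 to -0.83. Set against Myh6, the main adult ventricular myosin heavy chain, in the same library, the log2 ratio of Atp2a2 was -1.57 ± 0.19 (SD, n = 4) in knockouts and -0.14 ± 0.88 (SD, n = 3) in controls, and control 1 at -1.15 lay nearest to the highest knockout at -1.39.

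Pln encodes phospholamban, the small membrane protein that restrains the pump (ENSMUSG00000038583.12, chromosome 10, 53337667 to 53345987, plus strand). It stood at 3185, 1367, 1166 and 1262 CPM in knockouts 1 to 4 and at 4872, 2920 and 3745 CPM in controls 1 to 3. Knockout 1 reached into the control range and the other 3 knockouts lay below it. Pln had a log2 fold change of -1.14 ± 0.53 (SE) with all libraries and -1.60 without knockout 1. The log2 ratio of Pln to Atp2a2 counts was -2.08 ± 0.62 (SD, n = 4) in knockouts and -2.76 ± 0.83 (SD, n = 3) in controls, and these ranges overlapped.

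At the surface membrane, Slc8a1 encodes the sodium-calcium exchanger (ENSMUSG00000054640.14, chromosome 17, 81373105 to 81738377, minus strand) and was the single gene of the 9 with a higher level in knockouts. It stood at 1370, 1636, 1402 and 1267 CPM in knockouts 1 to 4 and at 587, 655 and 810 CPM in controls 1 to 3. Every knockout exceeded every control, and both groups were tight, with coefficients of variation of 11.0% in knockouts and 16.7% in controls. The log2 fold change was 1.05 ± 0.33 (SE), a level 2.07-fold higher in knockouts, and it was positive in 19 of 19 alternative settings, from 0.74 to 2.04. Slc8a1 supplied 8.93%, 13.2%, 12.9% and 9.03% of the counts of the 9 genes in knockouts 1 to 4, against 1.97%, 1.64% and 1.69% in controls 1 to 3. Atp2a2 supplied 47.5%, 50.5%, 52.5% and 56.3% of them in knockouts and 57.2%, 70.5% and 72.9% in controls. The log2 ratio of exchanger to pump counts, a quantity that scaling between libraries cannot alter, was -2.25 ± 0.33 (SD, n = 4) in knockouts and -5.22 ± 0.33 (SD, n = 3) in controls, a difference of 2.98.

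**Figure D3:**
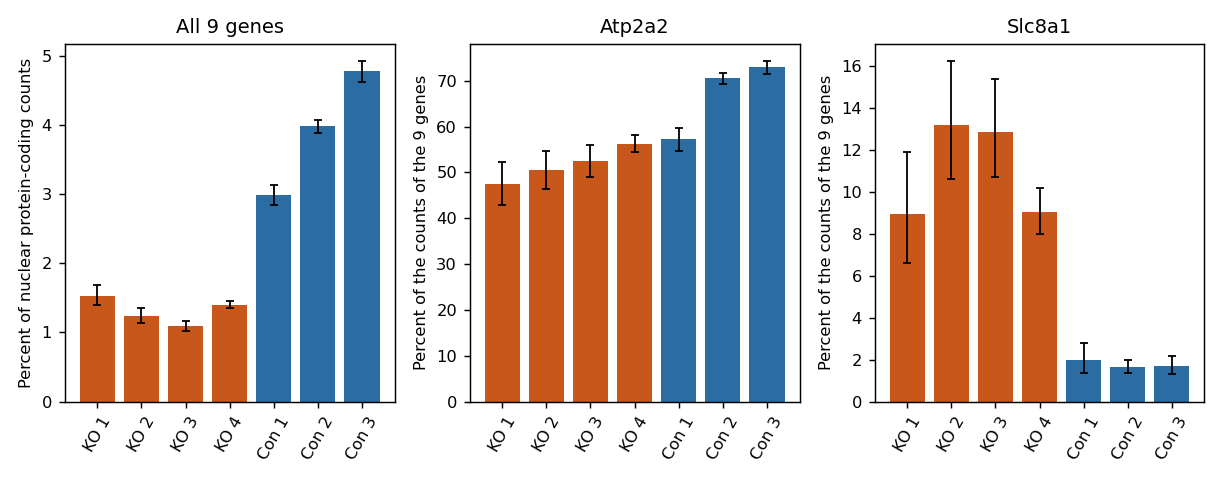
Bars give, for each library, the percent of nuclear protein-coding counts that fell on the 9 genes (left), and the percent of the counts of the 9 genes that fell on Atp2a2 (centre) and on Slc8a1 (right); KO is Tefm knockout, Con is control, and error bars are 95% Wilson intervals. The summed share is at most 1.53% in knockouts and at least 2.99% in controls, and the Slc8a1 share is at least 8.93% in knockouts and at most 1.97% in controls.

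Cacna1c encodes the pore of the L-type calcium channel (ENSMUSG00000051331.14, chromosome 6, 118587240 to 119196418, minus strand). It stood at 171, 157, 458 and 530 CPM in knockouts 1 to 4 and at 450, 593 and 645 CPM in controls 1 to 3. Knockouts 3 and 4 lay in the control range, and knockouts 1 and 2 lay far below it. Knockouts 1 and 2 were also the knockouts richest in small RNA (log2 ratios of 1.84 and 3.11). The edgeR fit called Cacna1c neither without nor with this ratio as a covariate, so that outcome says nothing about small RNA content. Whether small RNA content set the levels of knockouts 1 and 2 was not tested. The log2 fold change was -0.71 ± 0.45 (SE), and it was positive under scaling to total counts (0.44), microRNA counts (0.54) or mitochondrially encoded counts (0.72). Only 5 and 7 counts underlie the values of knockouts 1 and 2.

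Per kilobase of exon, Hrc and Ryr2 stood lower in the order of levels in knockouts than in controls. In knockouts the mean levels were 1117 CPM per kb for Atp2a2, 632 for Pln, 243 for Casq2, 89.9 for Jph2, 86.6 for Hrc, 75.4 for Slc8a1, 50.3 for Ryr2, 17.9 for Trdn and 15.5 for Cacna1c. In controls they were 4384 for Atp2a2, 1394 for Pln, 617 for Hrc, 438 for Casq2, 140 for Ryr2, 91.0 for Jph2, 36.4 for Slc8a1, 26.6 for Cacna1c and 21.7 for Trdn. Neighbours whose libraries overlapped, so that their order is not fixed, were Atp2a2 and Pln, Jph2 and Hrc, Hrc and Slc8a1, and Trdn and Cacna1c in knockouts, and Hrc and Casq2, and Cacna1c and Trdn in controls. Lengths are merged exons of GENCODE M21, which overstate the length of genes with several alternative ends.

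Hrc, Atp2a2, Ryr2, Pln and Slc8a1 kept the sign of their fold change in 19 of 19 alternatives, and the sign turned with the scaling for Casq2, Trdn, Jph2 and Cacna1c. Over all genes tested the median was 0.89 with libraries scaled to total counts, 0.88 with microRNA counts and 1.12 with mitochondrially encoded counts, against 0.19 on the scale used here. Relative to that median, Hrc ran from -3.60 to -2.90 over the 19 alternatives, Atp2a2 from -2.68 to -1.96, Ryr2 from -1.94 to -1.42, Pln from -1.76 to -1.08 and Casq2 from -1.47 to -0.69. Slc8a1 ran from 0.48 to 0.94 above it. Jph2 ran from -0.60 to 0.03.

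**Figure D4:**
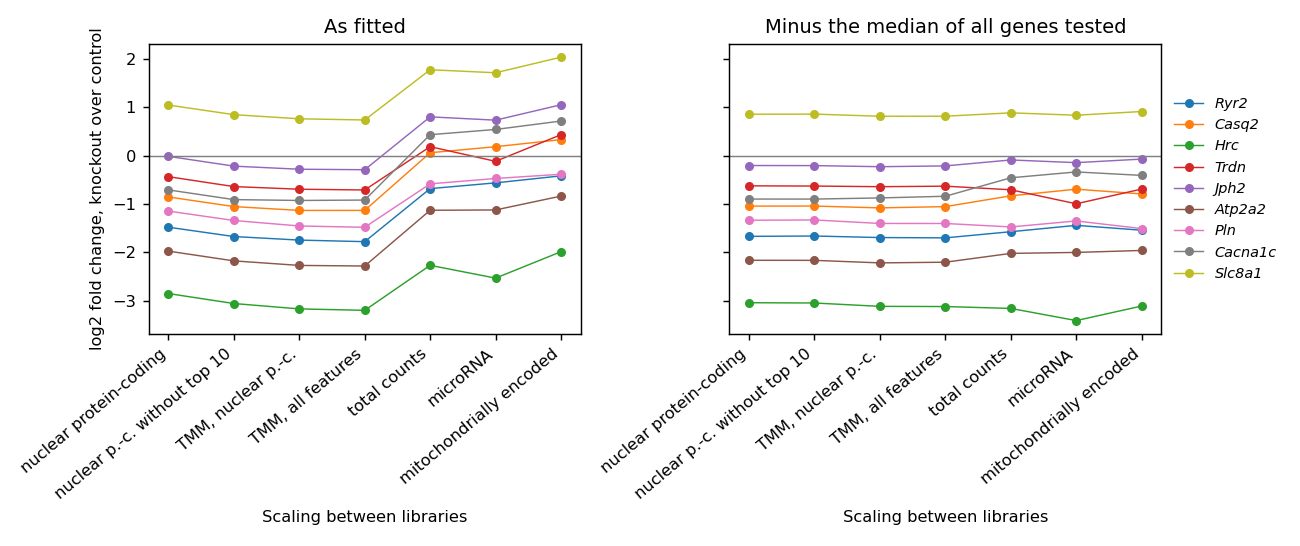
Lines join the log2 fold change (knockout over control) of each gene under 7 scalings between libraries, as fitted (left) and after subtracting the median of all genes tested under that scaling (right); the lines are guides to the eye. Under scaling to total, microRNA or mitochondrially encoded counts all genes shift upward together and Casq2, Jph2 and Cacna1c become positive (Trdn too, except under microRNA scaling), while relative to the median Hrc stays lowest and Slc8a1 highest.

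The authors' own comparison of knockout with control libraries was also read. Hrc (log2 fold change -2.95), Atp2a2 (-2.17), Ryr2 (-1.69) and Pln (-1.39) had an adjusted p under 0.05 in the lower direction in the authors' deposited table, as 2.07% of its genes with an adjusted p did (4.80% in either direction). Slc8a1 was at 0.72 with an adjusted p of 0.0593 in the authors' deposited table.

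Beyond the 9 genes, 88 other genes of calcium and sodium handling were listed by role, of which 86 were found by name and 31 had enough counts to test. Of these 31, 2 fell and 3 rose at an edgeR adjusted p under 0.05, against 8.70% of all genes tested. Their median log2 fold change was -0.13, with 15 positive and 16 negative, so the wider list lay on both sides of 0. The edgeR count was 0 without control 2, without control 3, without knockout 2 or without knockout 3 (8, 9, 7 and 5 genes at an unadjusted p under 0.05). Over all genes tested the number called fell as well, from 131 with all libraries to 15, 47, 29 and 34 in these fits. DESeq2 called 6 of the 31 with all libraries.

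Among those that fell, Cacna2d1, an auxiliary subunit of the L-type calcium channel, was at 205, 291, 319 and 276 CPM in knockouts 1 to 4 and at 489, 668 and 961 CPM in controls 1 to 3 (log2 fold change -1.35 ± 0.30, SE; edgeR adjusted p = 0.0338). Every knockout library lay below every control library. Cacna2d1 was called in 6 of 19 alternatives. Atp1b1, a subunit of the sodium pump, was at 0.59 ± 0.30 (SE) and did not pass the test (edgeR adjusted p = 0.266).

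The 3 genes that rose have different roles. Slc4a4, a sodium bicarbonate cotransporter, was at 103, 224, 167 and 175 CPM in knockouts 1 to 4 and at 78.3, 31.2 and 25.3 CPM in controls 1 to 3 (2.10 ± 0.45, SE; edgeR adjusted p = 0.0309), with only 11 counts over the controls. It entered the test through the knockouts, and without knockout 2, knockout 3 or knockout 4 it was not tested. Ghitm, an inner-membrane protein of mitochondria, was at 1438, 1457, 1124 and 747 CPM in knockouts and at 352, 312 and 430 CPM in controls (1.70 ± 0.37, SE; edgeR adjusted p = 0.0309). Prkar1a, a regulatory subunit of protein kinase A, was at 1986, 1614, 1846 and 1399 CPM in knockouts and at 587, 543 and 569 CPM in controls (1.59 ± 0.34, SE; edgeR adjusted p = 0.0309). Groups did not overlap for any of the 3. Ghitm was called in 7 of 19 alternatives, Prkar1a in 5 of 19, and Slc4a4 in 8 of the 16 in which it was tested.

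Other genes of the reticulum gave 0 calls among 9 tested by edgeR, with 2 at an unadjusted p under 0.05 and 1 called by DESeq2. Calr, the calcium-binding chaperone calreticulin, was lowest at 171, 224, 291 and 429 CPM in knockouts 1 to 4 and 489, 674 and 911 CPM in controls 1 to 3 (-1.25 ± 0.36, SE; edgeR adjusted p = 0.0707), and it was positive (0.12) under scaling to mitochondrially encoded counts. Srl, the calcium-binding protein sarcalumenin, had -0.61 ± 0.44 (SE), with overlap between the groups and a positive value under scaling to total, microRNA or mitochondrially encoded counts. Sln, the atrial pump inhibitor sarcolipin, had 3 counts over the knockouts and 10 over the controls and was not tested, nor was any other of the 6 further uptake genes listed. Of 7 tested genes of general reticulum function, such as Hsp90b1 and Pdia3, edgeR called 0 (2 at an unadjusted p under 0.05, 0 by DESeq2). Their median was -0.39.

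**Figure D5:**
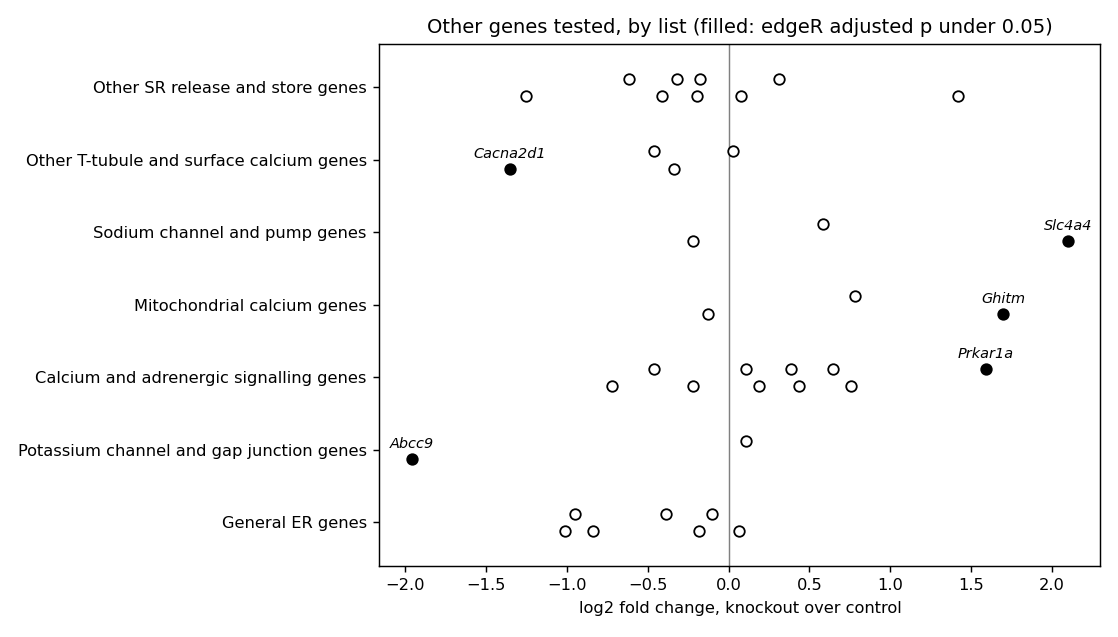
Circles are tested genes of the other lists, each placed by its log2 fold change (knockout over control) and filled where the edgeR adjusted p was under 0.05. Cacna2d1 and Abcc9 lie to the left, Slc4a4, Ghitm and Prkar1a lie to the right, and the other circles drawn are open.

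Among potassium channel and gap junction genes 2 of 15 were tested. Abcc9, the regulatory subunit of the cardiac ATP-sensitive potassium channel, fell (240, 157, 305 and 488 CPM in knockouts 1 to 4, against 743, 1173 and 1657 CPM in controls 1 to 3; -1.96 ± 0.45, SE; edgeR adjusted p = 0.0365), and the call was lost with TMM scaling and when any 1 of control 2, control 3 or knockouts 1 to 3 was left out. Gja1, the gap junction protein connexin 43, was at 0.11 ± 0.34 (SE), with a negative sign under TMM scaling, DESeq2's own size factors, without the 10 most abundant genes in the scale or without control 1. Of the 24 sarcomere genes 23 were tested, 3 rose and 0 fell by edgeR (7.31% and 1.40% of all genes tested), 7 were at an unadjusted p under 0.05 and DESeq2 called 7. Those that rose were the intercalated disc proteins Xirp1 (1.25 ± 0.28, SE) and Xirp2 (2.06 ± 0.50, SE) and Synpo2l (2.46 ± 0.27, SE), a Z-disc protein that entered the test through the knockouts, with 24 counts over the controls. Synpo2l was called in 16 of 19 alternatives, Xirp1 in 5 and Xirp2 in 4. The Xirp1 and Xirp2 calls were lost with TMM scaling, other filters, the replicate block and any 1 control left out, among others. Cmya5, which encodes myospryn, was at -1.70 ± 0.45 (SE; edgeR adjusted p = 0.0536), below every control in every knockout, and was called lower by DESeq2 and with TMM over nuclear protein-coding genes. Of 12 housekeeping genes 3 were tested and Eef1a1, a translation elongation factor, rose (1.33 ± 0.27, SE), with a call in 6 of 19 alternatives.

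Markers of other cells of the heart were also read. Summed levels for 10 endothelial markers were 2876 to 4421 CPM in knockouts and 4246 to 7097 CPM in controls. Of these markers 8 were tested and 8 were negative, with 0 called by edgeR, 2 at an unadjusted p under 0.05 and 2 called by DESeq2. For 10 fibroblast markers the sums were 6883 to 15177 CPM in knockouts and 8824 to 14953 CPM in controls. All 10 were tested, 6 positive and 4 negative, with log2 fold changes from -1.55 to 2.85. Only Postn was called by edgeR. It rose, having entered the test through the knockouts with 27 counts over the controls. For 8 smooth muscle and pericyte markers the sums were 672 to 1723 CPM in knockouts and 1233 to 2252 CPM in controls. Acta2 was called lower by edgeR, with only 27 counts over the knockouts and 56 over the controls. For 10 white blood cell markers the sums were 333 to 807 CPM in knockouts and 704 to 1088 CPM in controls. Cd74 was called lower by edgeR, having entered the test through the controls, with 25 counts over the knockouts. Itgam and Cd79a had 0 counts in all libraries. For each of these 4 lists the ranges of the groups overlapped. Erythroid markers summed to 111 to 411 CPM in knockouts and 187 to 354 CPM in controls. Skeletal muscle markers, all with under 10 counts, summed to 0 to 44.8 CPM in knockouts and 37.4 to 489 CPM in controls. The 8 atrial markers, which include Sln, summed to 2286 to 3322 CPM in knockouts and 493 to 2415 CPM in controls, and 0 of 3 tested were called by edgeR (1 at an unadjusted p under 0.05 and 1 by DESeq2). Ranges overlapped for these 3 lists too. The part of these cell types in the levels of the 9 genes was not tested.

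Over the 7 libraries, Atp2a2 followed the mean of the other 8 genes most closely (Pearson r = 0.99), then Hrc (0.93), Casq2 (0.80), Ryr2 (0.77) and Pln (0.70). Cacna1c (0.48), Trdn (0.43) and Jph2 (0.09) followed it less, and Slc8a1 ran opposite (-0.89). The genes outside the set whose pattern was most like the mean of the 9 were Ktn1 (r = 0.98), Lpl (0.98), mt-Co1 (0.97), Gpc1 (0.97) and Smoc2 (0.97). Ktn1 encodes kinectin of the endoplasmic reticulum, Lpl lipoprotein lipase, mt-Co1 a mitochondrially encoded subunit of cytochrome c oxidase, Gpc1 a glypican of the cell surface, and Smoc2 a secreted matrix protein. These correlations rest on 7 libraries in 2 groups that share depth and genotype, and they are a description.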

How the data were processed

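RNA of crude heart mitochondria was made into small RNA libraries and read from a single end (MiSeq), per the labels' protocols. Per the submitters' processing notes the tools were DESeq2 1.14.1 in R 3.3.2, featureCounts, bedtools, SAMtools 1.3.1, Bowtie2 and cutadapt 1.10, with build mm10. The annotation release and strand setting were not given in the sources used here, so counts of Pln, Slc8a1 and Atp2a2, whose exons overlap genes on the other strand, may hold reads of those genes. The raw counts per gene were deposited by the authors as whole numbers. The authors' deposited table holds log2 fold changes with standard errors and adjusted p-values, as its header names them. For 8 of the 9 genes its fold change was nearer 0 than that of DESeq2 with its own size factors here.

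Raw counts of all features were fitted under R 4.3.3 by the quasi-likelihood test of edgeR 4.0.16 (2 groups, no covariate, two-sided), with summed nuclear protein-coding counts as library sizes. The default low-count filter (minimum 10) left 1505 genes, and Benjamini-Hochberg adjustment ran over all of them, with a threshold of 0.05. Alternatives were other scalings, other filters (minimum count of 3, at least 1 count), DESeq2 1.42.0, a replicate block, a small RNA covariate, other prior counts and each library left out. Ratios within a library used counts plus 0.5, and intervals on shares are 95% Wilson intervals. Loci and lengths come from GENCODE M21 (GRCm38), matched by identifier without version. The fit was also run on simulated counts with a common dispersion for all genes. That run did not model differences in make-up between libraries, and nothing is concluded from it. Members and lists were chosen with earlier results of these data known, and the within-library ratios after these values were seen. Genes were named by a rule: all 9, up to 4 of each further list with the smallest p and any called, called markers, and the 5 most alike in pattern. Sln and Myh6 were added after their values were seen. Some genes of the further lists enter the counts but are not reported here by name.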

Additional observations from a re-analysis of the deposited data

Results flagged for a closer look

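With 4 knockout libraries, 53 values were screened for a library whose gap to the nearest other exceeds Dixon's 95% critical share of the range, and 4 were found, where chance gives about 1 in 20. Pln in knockout 1 stood at 3185 CPM against 1166 to 1367 CPM in knockouts 2 to 4 (gap 0.900 of the range). The counts of the 9 genes per 100 sarcomere counts were 16.1 in knockout 1 and 14.6 to 14.8 in the others (gap 0.909). The log2 ratio of Hrc to Casq2 was -0.29 in knockout 2 against -2.07 to -1.80 in the others (gap 0.847). Acta2 stood at 34.2 CPM in knockout 1 against 83.3 to 89.7 CPM in the others (gap 0.885). These Acta2 levels rest on only 1, 4, 6 and 16 counts in knockouts 1 to 4, so counting error is large. The cause of these gaps was not tested.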

How the results depend on the processing

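Of the 9 genes, Hrc kept an edgeR or DESeq2 adjusted p under 0.05 in 15 of 19 alternatives, among them all 7 that left out a library. It missed under scaling to total, microRNA or mitochondrially encoded counts and with the replicate block (log2 fold change -2.75). With the small RNA covariate, where edgeR called 368 genes in all, Ryr2, Casq2, Atp2a2, Pln and Slc8a1 were called too. Trdn, Jph2 and Cacna1c were not called there. The number of genes called was 131 (110 up and 21 down) and was 67 with TMM scaling over all features (45 up and 22 down), 79 with TMM over nuclear protein-coding genes (54 up and 25 down), 11 with total counts, 0 with microRNA counts (edgeR, with 28 at an unadjusted p under 0.05) and 8 with mitochondrially encoded counts. Without the 10 most abundant nuclear protein-coding genes it was 119 (82 up and 37 down). It was 265 without a filter beyond 1 count, 227 by DESeq2 with the same scaling, 231 with its own size factors (131 up and 100 down), 16 with the replicate block and 368 with the small RNA covariate. Leaving out a library gave 15 (without control 2) to 127 (without control 1), with 47 without control 3, 29 without knockout 2 and 34 without knockout 3.

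The median log2 fold change of the 9 genes was -1.13 with either TMM scaling, 0.063 with total counts, -0.11 with microRNA counts, 0.33 with mitochondrially encoded counts and -1.13 with the replicate block, and ran from -1.02 to -0.64 with a library left out. The number of the 9 below every control was 0 with total, microRNA or mitochondrially encoded counts and 4 to 6 with a library left out. It has no value with a covariate or a block. Of the other calcium and sodium genes, edgeR called 5, against 2 with TMM over all features and 3 with TMM over nuclear protein-coding genes. It called 3 without a filter beyond 1 count and 0 with the replicate block (8 at an unadjusted p under 0.05). With total, microRNA or mitochondrially encoded counts edgeR also called 0 (4, 0 and 4 at an unadjusted p under 0.05). DESeq2 was not run with the block or these 3 scalings, and it called 6 with nuclear protein-coding scaling. Leaving out a library gave 0 to 4 by edgeR. The cause of these differences was not tested. The deviations of same-numbered libraries from their group means had correlations of 0.51, -0.78 and 0.31 for numbers 1 to 3. Libraries with different numbers reached 0.86 (knockout 4 with control 2) and 0.75 (knockout 2 with control 1). With so few libraries these values cannot show whether the numbers pair the animals. Counts over the knockouts were fewest for Trdn (47), Hrc (68) and Jph2 (129).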
